A study of Mus musculus with 79 samples.

Results

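The late step of the response to nerve injury was examined in pulled-down RNA by setting 4 libraries of pulled-down RNA taken 7 d after sciatic nerve crush against 7 taken at 72 h. These 11 libraries are all those of the pulled-down fraction (IP) that the labels assign to the 2 times, out of 79 libraries in the series. All came from dorsal root ganglia at the lumbar levels L4 and L5 of BAC-TRAP BR145-GFP mice, and every mouse of both groups carried this transgene and had both sciatic nerves crushed. The IP 7 d group is RNA pulled down 7 d after the crush and the IP 72 h group is RNA pulled down 72 h after it. Whole-ganglion RNA (Input) of the same times, with 4 libraries at 7 d and 7 at 72 h, gives values set beside those of IP. So do 7 IP libraries of uninjured (naive) mice. The remaining libraries are the earlier times and naive Input. Naive IP and the earlier IP times also enter the estimate of the spread in the IP fit, and 1 plot. Input libraries of all times enter the spread in the fits of Input and of the difference between IP and Input. The sources used here do not give the promoter that drives BR145, the animals' age or any pooling of ganglia. Nor do the labels tie each library to an animal of its own, and every p-value rests only on how libraries of 1 group vary, which may be technical.

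A BAC-TRAP mouse carries a GFP-tagged ribosomal protein in chosen cells, so that beads coated with an antibody to GFP recover ribosomes together with the mRNA they hold. Sensory neurons of the ganglion respond to a cut or crushed axon with a transcription programme led by Atf3, Jun and Sox11, in which growth-associated proteins and some neuropeptides rise and many ion channels and subtype genes of the intact neuron fall. A crushed sciatic nerve can regrow, and the ganglion then passes from this early programme towards growth and target contact.

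The libraries of the 2 times differed before any gene was tested. The IP 7 d libraries held 12440226 to 16721527 gene counts, against 4952958 to 11854332 in IP 72 h. Rn45s, the ribosomal RNA precursor, and Lars2, a mitochondrial leucine tRNA ligase whose annotated transcript holds a stretch like ribosomal RNA, together took 2.48%, 4.54%, 8.16% and 1.37% of the counts in the 4 libraries of 7 d. In the 7 libraries of 72 h the lowest, median and highest share were 9.50%, 20.9% and 21.9%. No library of 7 d reached the share of any library of 72 h, and the difference in mean log2 share was -2.26 (exact 2-sided permutation test over 330 arrangements, p = 0.00606). The Input libraries differed in the same direction, with 1.64% to 2.74% at 7 d, against 5.71% to 19.3% at 72 h. Time and this share can therefore not be told apart between these 11 libraries, and the counts of genes below are given also, for most lists, with the share as a covariate, with log2 of the share as a covariate (added after the data were seen) and, where the text says so, with only the 3 libraries of 72 h under 15%. Replicate 5 of 72 h was the shallowest library, and 8 of the 11 named genes for which 1 library of 72 h stood apart pointed to it. Leaving out replicate 4 of 7 d, which had the lowest share, had the largest effect on the count of genes among the single libraries. Xist and Ddx3y, markers of female and male tissue, both exceeded 1 on the log2 CPM scale in 3 of 4 libraries of 7 d and 3 of 7 of 72 h.

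**Figure D1:**
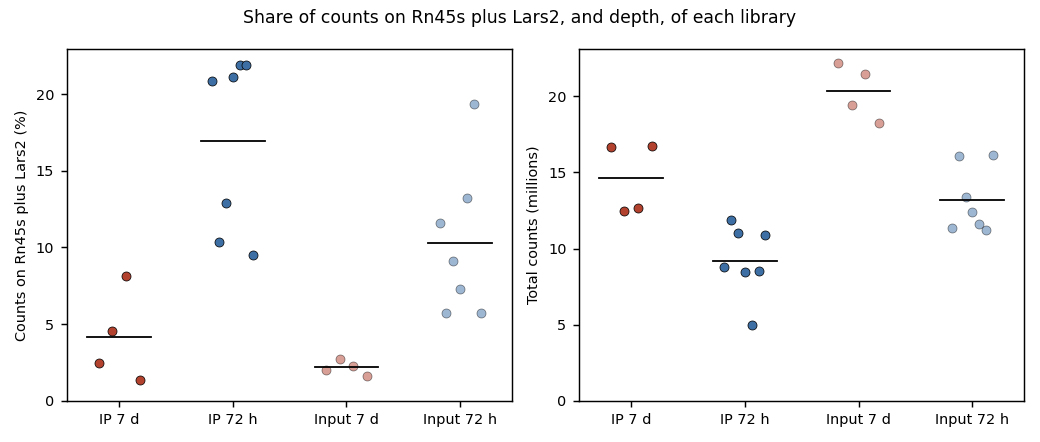
Percent of gene counts on Rn45s plus Lars2 (left) and total gene counts (right) for each library of IP 7 d, IP 72 h, Input 7 d and Input 72 h. Points are libraries and bars are means. The 4 IP libraries of 7 d lie between 1.37% and 8.16%, all below the 7 of 72 h at 9.50% to 21.9%.

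Between the 2 times, 1280 of 18656 genes tested were higher at 7 d (6.86%) and 1184 were lower (6.35%), by edgeR's quasi-likelihood test at a Benjamini-Hochberg adjusted p under 0.05. In 914 (4.90%) and 625 (3.35%) of all genes tested the call was also free of overlap between the 4 libraries of 7 d and the 7 of 72 h. The median log2 change over all genes tested was -0.14. With the share as a covariate 1102 genes were higher (5.91%) and 1063 lower (5.70%). With log2 of the share there were 382 higher and 429 lower, and with only the 3 libraries of 72 h under 15% there were 183 higher and 271 lower. Without replicate 4 of 7 d there were 699 higher and 500 lower. The split also differed by tool, with 1340 higher and 2182 lower in DESeq2. In Input 4276 of 16217 genes were higher (26.4%) and 3746 lower (23.1%), and the change in IP exceeded that in Input for 1369 of 19584 genes (6.99%) and lay below it for 970 (4.95%). Against naive IP libraries 1915 genes were higher and 1960 lower at 7 d, and 317 higher and 160 lower at 72 h. These 2 comparisons share the naive libraries with each other and 1 group each with the direct comparison. Changes are log2 of the level at 7 d over that at 72 h, given with the standard error (SE), and levels are CPM, the depth-scaled counts of a gene after TMM normalization. In whole tissue and in pulled-down RNA alike, fewer cells of a type and less RNA per cell cannot be told apart.

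Messenger RNAs of the ribosome's own proteins were lower at 7 d. Of 80 ribosomal protein genes, all tested, 37 fell and 0 rose, with a median log2 change of -0.83 beside -0.14 for all genes. Their summed level was 2503, 3969, 4169 and 3006 CPM in the 4 libraries of 7 d, against a lowest, median and highest value of 5501, 6581 and 8871 CPM in the 7 of 72 h, so that the groups did not overlap. The share covariate left 38 lower, log2 of the share 19, the 3 libraries of 72 h under 15% 13, and the fit without replicate 4 of 7 d 27, with 0 higher in each. In Input 80 of 80 fell, with a median of -1.80, and for 38 of 80 the IP change lay above the Input change while for 0 it lay below.

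Rpl32 of the large subunit (mm10, chr6:115805514-115808743) had 71.1, 84.8, 73.9 and 64.0 CPM in the 4 libraries of 7 d. In the 7 libraries of 72 h its lowest, median and highest levels were 152, 169 and 259.6 CPM, and its log2 change was -1.35 (SE 0.19, adjusted p = 8.93e-06). Rpl38, also of the large subunit (chr11:114667818-114672333), had 13.2, 29.6, 27.9 and 23.6 CPM at 7 d, against 51.3, 78.5 and 112 CPM at 72 h in the same order of lowest, median and highest, with a log2 change of -1.78 (SE 0.27, adjusted p = 2.45e-05). In both genes every library of 7 d lay below every library of 72 h. Rps14 of the small subunit had 64.5, 127, 137 and 86.3 CPM at 7 d, against 239.7, 284 and 441 CPM at 72 h, a log2 change of -1.63 (adjusted p = 1.04e-05). Rpl41, which encodes the shortest ribosomal protein, had 110.2, 217, 253 and 162 CPM at 7 d, against 364, 441 and 763 CPM at 72 h, a log2 change of -1.43 (adjusted p = 8.76e-05). These 4 genes passed in every fit that left out 1 library, with log2 of the share as a covariate, and with only the 72 h libraries under 15%. Rpl10a, the ribosomal protein to which GFP is fused in this kind of mouse, had 14.7, 19.7, 15.1 and 31.2 CPM at 7 d, against 9.92, 15.5 and 20.4 CPM at 72 h, and did not pass (log2 change 0.46, adjusted p = 0.516).

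Many ribosomal protein mRNAs begin with a C at the cap followed by an unbroken run of pyrimidines, the terminal oligopyrimidine tract, through which growth signals are known to set their translation. Of the 80 members 59 have a start region in the RefSeq tables of GRCm38.p6, and in 14 of these (23.7%) the annotated first base was a C followed by at least 4 further C or T, read on the gene's strand only, against 813 of 27025 genes in all (3.01%). The tract stood in 8 of 26 members that fell (30.8%) and in 6 of 33 that did not pass (18.2%), and such a match describes the annotated letters only. The windows below run from 10 bases before the annotated start to 20 bases from it, 5′ to 3′, with the run in capitals, and are shown for 5 members that fell and 3 that did not pass, chosen after their values were seen, to set the letters beside the values.
Rps21: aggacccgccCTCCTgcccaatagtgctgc
Rpl38: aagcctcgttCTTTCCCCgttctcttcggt
Rpl35a: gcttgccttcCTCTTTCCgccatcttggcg
Rps10: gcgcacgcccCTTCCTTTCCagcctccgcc
Rps18: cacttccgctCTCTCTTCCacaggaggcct
Rpl15: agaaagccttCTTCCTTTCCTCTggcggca
Fau: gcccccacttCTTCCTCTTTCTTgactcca
Rps6: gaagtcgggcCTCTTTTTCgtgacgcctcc
On the plus strand of GRCm38.p6 stood Rps21 at chr2:180257369-180257398, Rpl38 at chr11:114668570-114668599, Rpl35a at chr16:33056472-33056501 and Fau at chr19:6057937-6057966. On the minus strand of GRCm38.p6 stood Rps10 at chr17:27635225-27635254, Rps18 at chr17:33955646-33955675, Rpl15 at chr14:18270967-18270996 and Rps6 at chr4:86857348-86857377. Rps21, Rpl38, Rpl35a, Rps10 and Rps18 had log2 changes of -1.85, -1.78, -1.42, -1.38 and -1.28 in that order. Rpl15, Fau and Rps6, which did not pass, had log2 changes of -0.49, -0.37 and 0.09. Their runs were as long as or longer than those of Rps21, Rpl38, Rpl35a and Rps18. Rps10 (10 letters) had a longer run than Rps6 (9 letters). So did Rpl35 (11 letters, log2 change -1.02), which fell and is not shown. Rpl14 and Rplp2, which also fell and are not shown, had runs of 6 and 5 letters. The remaining 3 with a tract that did not pass were Rps27 (run of 7 letters, log2 change -1.14), Rps15a (8 letters, -0.70) and Rpl28 (8 letters, -0.56). Their runs were shorter than those of Rpl15, Fau and Rps6, and their log2 changes were larger in size.

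The respiratory chain, the series of mitochondrial membrane complexes that makes ATP, was lower in part. Of 75 nuclear genes for its subunits 16 fell (21.3%, beside 6.35% of all genes tested), with a median log2 change of -0.35. Another 4 rose, which is 5.33%, under the 6.86% of all genes tested. The members that fell included small accessory subunits, and the 4 that rose were Ndufa10 of complex I (log2 change 1.33), Atp5b, the catalytic subunit of ATP synthase (1.12), Uqcrc1, a core protein of complex III (1.11), and Sdhc of complex II (0.76). The share covariate gave 33 lower and 4 higher, log2 of the share 33 lower and 1 higher, the 3 libraries of 72 h under 15% 6 lower and 0 higher, and the fit without replicate 4 of 7 d 11 lower and 1 higher. In Input 62 fell and 5 rose, and for 33 members the IP change lay above the Input change, for 0 below. Summed over the list the level was 8974, 12959.8, 15440.0 and 13944 CPM in the libraries of 7 d, against 12755, 15361 and 21843 CPM as lowest, median and highest at 72 h, and the groups overlapped.

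Ndufa2, an accessory subunit of complex I, had 88.4, 141, 257 and 135 CPM at 7 d, against 311, 407 and 723 CPM at 72 h, and a log2 change of -1.59 (SE 0.27, adjusted p = 0.000105). Uqcrh, the hinge protein of complex III, had 87.1, 207, 277 and 152 CPM at 7 d, against 381, 435 and 743 CPM at 72 h, and a log2 change of -1.52 (adjusted p = 0.000171). Neither gene's groups overlapped. Atp5e, the epsilon subunit of ATP synthase, had 44.4, 105, 111 and 100.4 CPM at 7 d, against 135, 214 and 398 CPM at 72 h, and a log2 change of -1.48 (adjusted p = 0.000391), with replicate 1 of 7 d lowest. Atp5k, another ATP synthase subunit, averaged 138 ± 51.7 CPM at 7 d and 404 ± 127 CPM at 72 h (SD, n = 4 and n = 7), a log2 change of -1.55 (adjusted p = 0.000250). All 4 passed with either covariate and with the 72 h libraries under 15%.

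**Figure D2:**
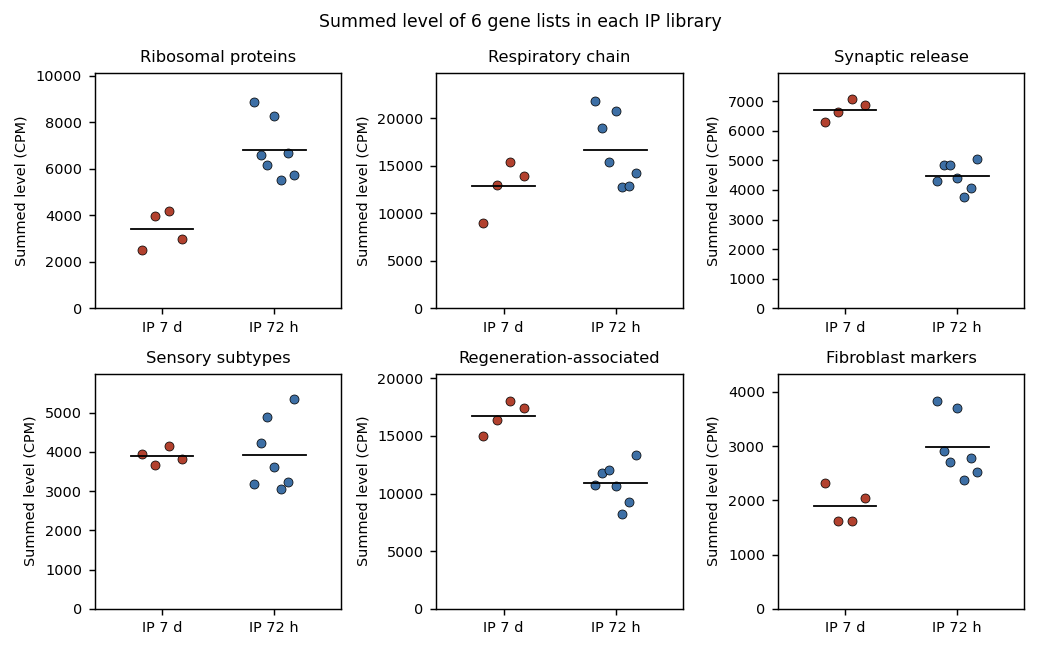
Summed level in CPM of 6 gene lists in each IP library, with 7 d left and 72 h right in each panel. Points are libraries and bars are means. Ribosomal protein genes lie at 2503 to 4169 CPM at 7 d, below all 7 libraries of 72 h, the synaptic release and regeneration-associated lists lie above them, and the respiratory chain and sensory subtype lists overlap.

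Genes of transmitter release, the machinery that docks and fuses vesicles at nerve terminals, rose more often than they fell at 7 d. Of 38 such genes 11 rose, 4 fell and the others did not pass, with a median log2 change of 0.44. The risers included Cplx1, Vamp1, Napb, Snap25, Syt9, Syp, Vamp2, Syt2, Rab3a and Syn1, which are vesicle, SNARE or SNARE-binding proteins. The 4 that fell were Unc13c (log2 change -1.29), Cplx2 (-0.72), Pclo (-0.70) and Erc2 (-0.69), of which Pclo and Erc2 encode large scaffolds of the active zone. The counts were 10 higher and 4 lower with the share, 3 and 2 with log2 of the share, 1 and 2 with only the 72 h libraries under 15%, and 9 and 1 without replicate 4 of 7 d. Input had 21 higher and 2 lower. The IP change lay above the Input change for 2 of 38 members and below it for 1, beside 6.99% and 4.95% of all genes tested for this difference.

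Cplx1 (complexin 1, which clamps the SNARE complex) had 612, 522, 623 and 687 CPM at 7 d, against 189, 297 and 318 CPM at 72 h, and a log2 change of 1.14 (SE 0.25, adjusted p = 0.00153). Its Input change was 0.02, and the difference between IP and Input was 1.18 (adjusted p = 0.0117). Syp (synaptophysin, a vesicle membrane protein) had 384, 466, 421 and 336 CPM at 7 d, against 152, 202 and 240.3 CPM at 72 h, a log2 change of 1.02 (adjusted p = 0.00151). In both genes the groups did not overlap. Snap25, a SNARE of the plasma membrane, had 731, 933, 1062 and 1420.5 CPM at 7 d, against 313, 521 and 703 CPM at 72 h, a log2 change of 1.04 (adjusted p = 0.00382). Against naive, Snap25 had log2 changes of 0.08 at 7 d (adjusted p = 0.855) and -0.96 at 72 h (adjusted p = 0.00474). With log2 of the share as a covariate the adjusted p of Cplx1, Syp and Snap25 was 0.120, 0.0609 and 0.107. Napb, a soluble NSF attachment protein, averaged 273 ± 51.5 CPM at 7 d and 133 ± 22.3 CPM at 72 h, and kept an adjusted p of 0.0299 under that covariate (log2 change 1.04, adjusted p = 0.000979 without it). Syt9, a synaptotagmin of dense-core and synaptic vesicles, had 103, 73.8, 47.6 and 116 CPM at 7 d, against 35.9, 38.7 and 48.3 CPM at 72 h, with overlap and a log2 change of 1.03 (adjusted p = 0.00165).

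Of 21 genes taken as general markers of neurons, 8 rose and 0 fell, with a median log2 change of 0.19. The risers were Nefl, Snap25, Rtn1, Eno2, Nsg1, Stmn2, Syn1 and Gap43, while Rbfox3, the nuclear protein NeuN, had a log2 change of 0.07 (adjusted p = 0.824) and Tubb3 one of 0.19 (adjusted p = 0.617). Snap25 and Syn1 are counted also among the release genes, and Nefl, Stmn2 and Gap43 among the regeneration-associated genes, so these lists are not independent. The summed level of the 21 markers ran from 22199.7 to 26960.4 CPM at 7 d and from 16548 to 24089 CPM at 72 h. With log2 of the share 2 rose, with the 72 h libraries under 15% 0 passed, and without replicate 4 of 7 d 6 rose. Nefl, the light neurofilament protein, had 3954, 3066, 3249 and 3799 CPM at 7 d, against 1174, 1666 and 2071 CPM at 72 h, a log2 change of 1.12 (SE 0.25, adjusted p = 0.00224). Its log2 change against naive was 0.40 at 7 d (adjusted p = 0.264) and -0.72 at 72 h (adjusted p = 0.0679). Rtn1, a reticulon of the endoplasmic reticulum, averaged 895 ± 144 CPM at 7 d and 489 ± 103 CPM at 72 h, a log2 change of 0.87 (adjusted p = 0.00357). Nsg1, an endosomal protein of neurons, had 215, 224, 309 and 215 CPM at 7 d, against 101, 139.8 and 147 CPM at 72 h, a log2 change of 0.85 (adjusted p = 0.00571), and replicate 3 stood above the other 3 libraries of 7 d.

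Among 27 tubulin, neurofilament and microtubule-binding genes 4 rose and 1 fell. Tubb4a, a beta tubulin isotype (chr17:57080061-57087600), had 658, 483, 528 and 802 CPM at 7 d, against 69.7, 107 and 162 CPM at 72 h. Every library of 7 d held more than any of 72 h, with a log2 change of 2.43 (SE 0.34, adjusted p = 6.68e-06), and the change was 1.501 with log2 of the share (adjusted p = 8.8e-05). Ina (alpha-internexin, an intermediate filament protein of neurons) had 71.3, 75.3, 65.8 and 61.2 CPM at 7 d, against 19.6, 28.1 and 40.9 CPM at 72 h, a log2 change of 1.30 (adjusted p = 0.00268). Stmn2, a tubulin-binding protein of growing axons, had 2298, 3118, 3412 and 3072 CPM at 7 d, against 1276, 1817 and 2019.5 CPM at 72 h, a log2 change of 0.78 (adjusted p = 0.00978). The Stmn2 change in Input was -0.23, and the difference between IP and Input was 1.07 (adjusted p = 0.00615). Map1a fell (log2 change -0.89, adjusted p = 0.0300), and the heavy and medium neurofilament genes Nefh and Nefm had log2 changes of -0.53 and -0.70 that did not pass. Paralogous tubulins could share reads, since the sources used here do not say how reads that map to several places were handled.

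**Figure D3:**
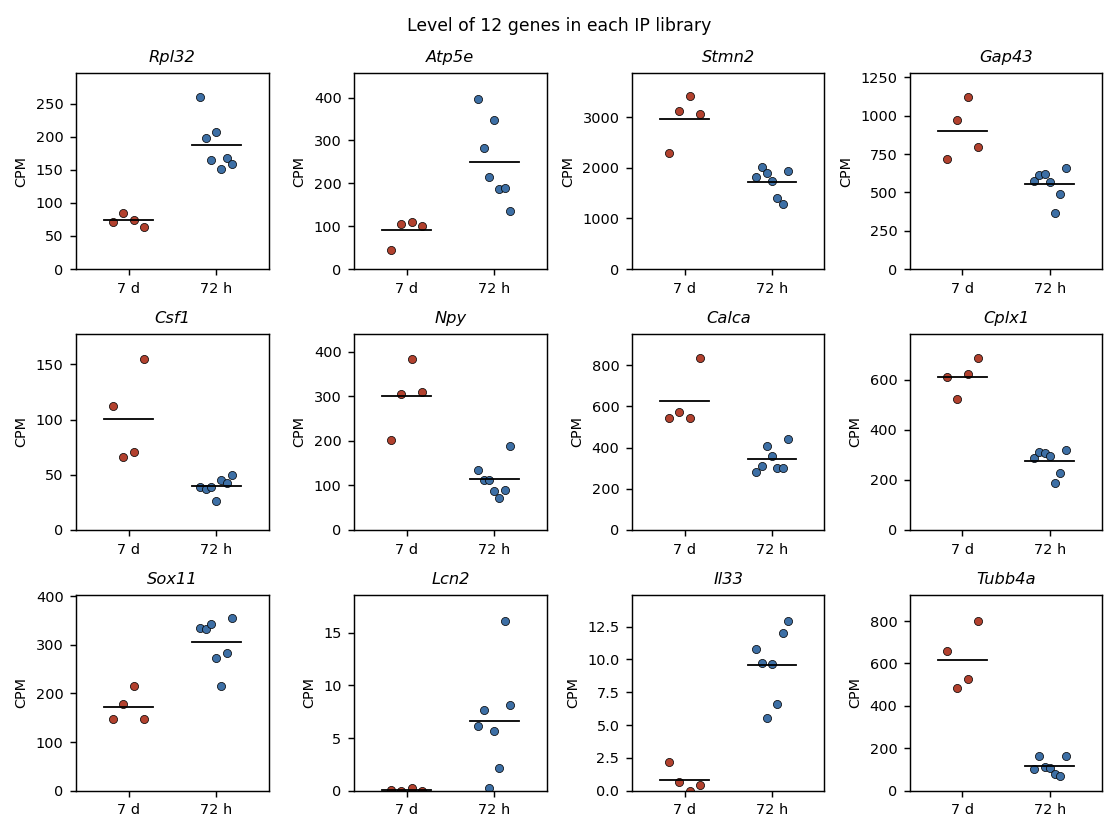
Level in CPM of 12 genes in each IP library, with 7 d left and 72 h right in each panel. Points are libraries and bars are means. No library of 7 d overlaps those of 72 h in any of the 12 genes, which were chosen for the plot after their values were seen.

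Some genes that define kinds of sensory neuron were higher at 7 d. Of 42 tested subtype genes 11 rose and 1 fell, with a median log2 change of 0.65, although their summed level overlapped, at 3662 to 4158 CPM for 7 d and 3055 to 5337 CPM for 72 h. The risers belong to several kinds of neuron: Mrgprd of non-peptidergic nociceptors (log2 change 1.35), Ntrk3, the neurotrophin 3 receptor of proprioceptors and mechanoreceptors (0.84), and the broad sensory factors Pou4f1 (0.75) and Prdm12 (1.23). Maf, a factor of touch neurons, fell (-0.82). The counts were 11 higher and 2 lower with the share, 5 and 2 with log2 of the share, 3 and 1 with the 72 h libraries under 15%, and 10 and 1 without replicate 4 of 7 d. In Input 22 of 41 rose and 3 fell.

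Slc17a7, the vesicular glutamate transporter VGLUT1, had 107, 94.99, 148 and 213 CPM at 7 d, against 29.4, 44.1 and 73.3 CPM at 72 h, a log2 change of 1.57 (SE 0.22, adjusted p = 6.06e-06). Calb1, the calcium buffer calbindin, had 14.7, 36.9, 23.6 and 41.9 CPM at 7 d, against 5.95, 8.86 and 10.8 CPM at 72 h, a log2 change of 1.77 (adjusted p = 4.37e-05). Both genes' groups were free of overlap, and both passed with either covariate, without any single library and with the 72 h libraries under 15%. Against naive, Calb1 had a log2 change of 0.22 at 7 d (adjusted p = 0.621) and -1.56 at 72 h (adjusted p = 3.2e-05). Hapln4, a link protein of the perineuronal matrix, had 43.3, 42.9, 17.5 and 82.7 CPM at 7 d, against 5.12, 13.3 and 16.1 CPM at 72 h, a log2 change of 1.97 (adjusted p = 0.000176). Its log2 change against naive was 0.62 at 7 d (adjusted p = 0.203) and -1.35 at 72 h (adjusted p = 0.00658). Lpar3, a lysophosphatidic acid receptor, had 51.3, 11.8, 27.1 and 44.1 CPM at 7 d, against 4.57, 10.4 and 13.5 CPM at 72 h, and its second library of 7 d overlapped the range of 72 h (log2 change 1.81, adjusted p = 0.000909).

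Of 52 ion channel genes 11 rose and 1, the sodium channel gene Scn3a (log2 change -1.84, adjusted p = 0.0107), fell. The median log2 change was 0.38. With log2 of the share 4 rose and 0 fell, with the 72 h libraries under 15% 2 rose and 0 fell, and without replicate 4 of 7 d 8 rose and 0 fell. In Input 37 rose and 0 fell, and the IP change lay below the Input change for 9 members and above it for 1. Asic3, an acid-sensing channel of muscle and joint afferents, had 191, 151, 172 and 325 CPM at 7 d, against 49.6, 74.6 and 106 CPM at 72 h, a log2 change of 1.44 (SE 0.26, adjusted p = 0.000193). All 4 libraries of 7 d lay above the 7 of 72 h. Hcn2, a pacemaker channel activated by hyperpolarisation, averaged 37.4 ± 11.6 CPM at 7 d and 13.6 ± 1.53 CPM at 72 h, a log2 change of 1.46 (adjusted p = 0.00121). Kcnmb1, a beta subunit of calcium-activated potassium channels, had 18.7, 21.4, 8.42 and 27.8 CPM at 7 d, against 1.65, 5.62 and 8.86 CPM at 72 h, and 1 library of 7 d overlapped (log2 change 1.72, adjusted p = 0.00210). Scn10a, the sodium channel of nociceptors, had 175, 144, 161 and 88.1 CPM at 7 d, against 129, 194 and 336 CPM at 72 h, which did not pass in IP (log2 change -0.52, adjusted p = 0.149). In Input Scn10a had a log2 change of 1.40 (adjusted p = 2.14e-10), and the difference between IP and Input was -1.85 (adjusted p = 1.25e-05).

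Genes of the injury response were called in part, and how many depended on the fit. Of 49 tested regeneration-associated genes 9 rose (Cckbr, Socs3, Npy, Csf1, Klf7, Nefl, L1cam, Stmn2 and Gap43), 1 fell (Sox11) and 39 did not pass, with a median log2 change of 0.51. Their summed level was 14989, 16362, 18069.9 and 17402 CPM in the libraries of 7 d, against 8267, 10714 and 13386 CPM as lowest, median and highest at 72 h, without overlap. With the share 8 rose and 1 fell, with log2 of the share 5 and 1, with the 72 h libraries under 15% 1 and 0, and without replicate 4 of 7 d 7 and 0. Other settings gave more, with 21 higher and 1 lower when the 11 libraries were fitted alone, 21 and 2 with limma voom and 14 and 1 with the non-neuronal score. In Input 20 rose and 11 fell.

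The transcription factors that lead the injury response had no common direction. Atf3 had 383, 388, 347 and 539 CPM at 7 d, against 202, 266 and 312 CPM at 72 h, and did not pass although the groups were apart (log2 change 0.67, SE 0.34, adjusted p = 0.191). It passed when the 11 libraries were fitted alone (edgeR's adjusted p = 0.00549) and with limma voom (adjusted p = 0.0216). Its log2 change against naive was 5.92 at 7 d and 5.25 at 72 h. Jun had 334, 222, 291 and 313 CPM at 7 d, against 223, 271 and 328 CPM at 72 h, with overlap and a log2 change of 0.10 (adjusted p = 0.782). Sox11, a factor of neuronal growth (chr12:27334268-27342718), had 147, 179, 215 and 147 CPM at 7 d, against 216, 332 and 356 CPM at 72 h, and fell with no overlap (log2 change -0.83, SE 0.24, adjusted p = 0.0189). The adjusted p of Sox11 was 0.291 with log2 of the share, 0.0810 without replicate 4 of 7 d and above 0.05 also without replicate 1 of 7 d. Its log2 change against naive was 2.72 at 7 d and 3.55 at 72 h. Klf7, a Krüppel-like factor that promotes axon growth, had 215, 176, 148 and 183 CPM at 7 d, against 62.0, 72.4 and 94.3 CPM at 72 h, and rose (log2 change 1.27, adjusted p = 0.000128). Klf7 passed with either covariate, without any single library and with the 72 h libraries under 15%. Gadd45a, a stress-induced growth-arrest gene, had 201, 329, 354 and 310.1 CPM at 7 d, against 291, 377 and 447 CPM at 72 h (log2 change -0.32, adjusted p = 0.434), with an Input change of -1.29 and a difference of 1.03 between IP and Input (adjusted p = 0.0305).

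Growth-associated products were higher at 7 d in level, and part of them passed. Gap43, a membrane protein of the growth cone (chr16:42248552-42340651), had 718, 974, 1123 and 794 CPM at 7 d, against 365, 571 and 660.1 CPM at 72 h, with no overlap (log2 change 0.70, SE 0.22, adjusted p = 0.0264). The change in Input ran the other way at -0.80 (adjusted p = 1.12e-05), and the difference between IP and Input was 1.56 (adjusted p = 0.000328). The adjusted p of Gap43 rose to 0.300 with log2 of the share and to 0.0803 without replicate 5 of 72 h, and it was above 0.05 also without replicate 6 of 72 h and replicates 2 or 3 of 7 d. Sprr1a, a small proline-rich protein of injured neurons, had 718, 786, 978 and 1089 CPM at 7 d, against 222, 336 and 421 CPM at 72 h, apart from each other but not past the threshold (log2 change 1.48, SE 0.56, adjusted p = 0.0765). Ecel1, an endopeptidase of injured neurons, had 202, 118, 137 and 174 CPM at 7 d, against 32.9, 42.1 and 57.1 CPM at 72 h (log2 change 1.80, SE 0.64, adjusted p = 0.0568). Fitted on the 11 libraries alone both passed, with an adjusted p of 1.08e-05 for Sprr1a and 4.36e-06 for Ecel1 by edgeR, as they did with limma voom and the non-neuronal score, whereas neither passed with DESeq2 or log2 of the share. With the share Ecel1 passed (adjusted p = 0.044) and Sprr1a did not. L1cam, an adhesion molecule of axons, had 165, 181, 180.4 and 245 CPM at 7 d, against 67.9, 76.9 and 131 CPM at 72 h, and rose (log2 change 1.11, adjusted p = 0.000582), with a larger Input change of 2.09 and a difference of -0.92 (adjusted p = 0.0287). Csf1, the growth factor through which injured neurons act on macrophages and microglia, had 112, 65.7, 70.6 and 155 CPM at 7 d, against 26.6, 38.9 and 49.9 CPM at 72 h, without overlap (log2 change 1.34, adjusted p = 0.00433). Without replicate 4 of 7 d the adjusted p of Csf1 was 0.0569.

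**Figure D4:**
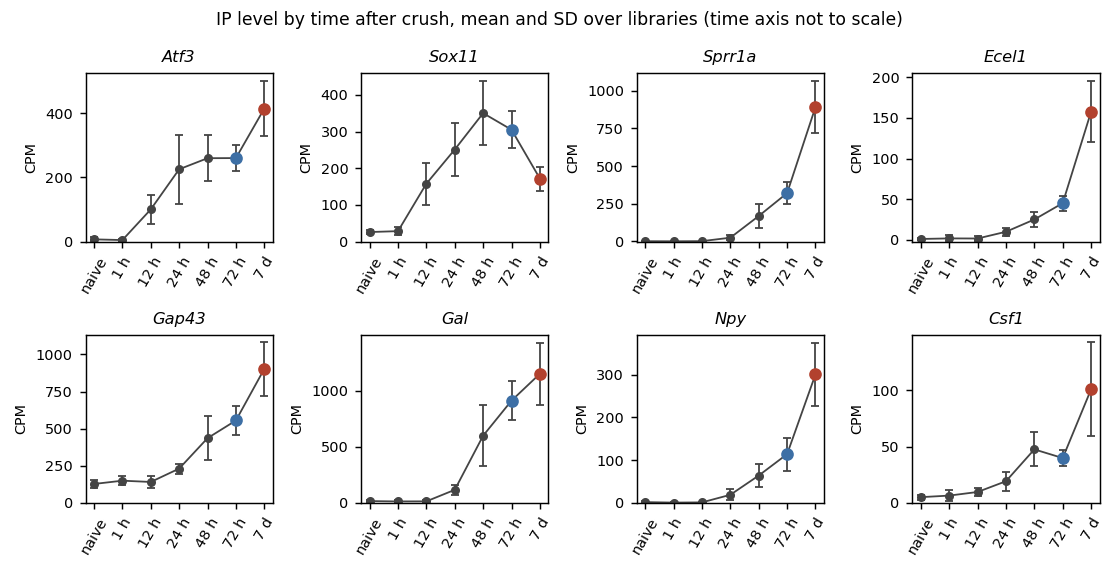
Mean IP level in CPM with its SD for 8 injury genes in naive libraries (n = 7) and at 1 h (n = 5), 12 h (n = 6), 24 h (n = 4), 48 h (n = 6), 72 h (n = 7, blue) and 7 d (n = 4, red) after crush, on an axis of evenly spaced times. Sox11 averages 172 CPM at 7 d and 305 CPM at 72 h, while the other 7 genes have their highest mean at 7 d.

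Of 24 tested neuropeptide and granin genes 5 rose and 0 fell, with a median log2 change of 0.45. That median was -0.0041 with log2 of the share, 0.055 without replicate 4 of 7 d, 0.028 with limma voom and 0 with no filter. Npy, which sensory neurons make after injury, had 203, 306, 385 and 309 CPM at 7 d, against 71.2, 112 and 188 CPM at 72 h, and rose with no overlap (log2 change 1.40, SE 0.47, adjusted p = 0.0420). Its adjusted p was 0.0937 with the share covariate, and it exceeded 0.05 in 8 of 11 fits that left out 1 library. Gal (galanin) had 734, 1275, 1327 and 1259 CPM at 7 d, against 681, 899 and 1115 CPM at 72 h, and did not pass (log2 change 0.34, adjusted p = 0.652). Against naive, the log2 change of Npy was 8.01 at 7 d and 6.60 at 72 h, and that of Gal 6.13 and 5.80. Nts (neurotensin) had 114, 315, 248 and 216 CPM at 7 d, against 75.4, 139 and 170.2 CPM at 72 h, which did not pass (log2 change 0.76, adjusted p = 0.101).

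The peptides of intact nociceptors, here Calca, Calcb and Tac1, were higher at 7 d in part, as were the more general Vgf and Scg2. Calca, which encodes calcitonin gene-related peptide, had 546, 574, 546 and 837 CPM at 7 d, against 283, 312 and 442 CPM at 72 h, without overlap and with replicate 4 of 7 d far above the others (log2 change 0.86, adjusted p = 0.00534). Without that library the adjusted p was 0.0590. Calcb, its second gene, had 121, 91.4, 145 and 86.5 CPM at 7 d, against 31.7, 51.5 and 74.3 CPM at 72 h (log2 change 1.09, SE 0.25, adjusted p = 0.00291). Vgf, the precursor of several secreted peptides, had 208, 174, 296 and 194 CPM at 7 d, against 94.2, 131 and 147 CPM at 72 h (log2 change 0.82, adjusted p = 0.00320). Scg2, a granin of dense-core vesicles, averaged 135 ± 26.4 CPM at 7 d and 79.05 ± 18.6 CPM at 72 h (log2 change 0.77, adjusted p = 0.00751). Tac1, the substance P gene, had 183, 231, 226 and 245 CPM at 7 d, against 116, 162 and 192 CPM at 72 h, and did not pass (log2 change 0.43, adjusted p = 0.112). With log2 of the share 1 of the 5 neuropeptide genes, Vgf, remained past the threshold, and without replicate 4 of 7 d 2 rose.

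Some lipid synthesis genes were higher at 7 d. Of 25 cholesterol synthesis genes 7 rose and 0 fell, with a median log2 change of 0.42, and of 17 fatty acid synthesis genes 6 rose (Fads2, Elovl5, Elovl1, Elovl6, Fads1 and Scd1) and 2 fell. The 2 that fell were Acaca (log2 change -0.82) and Acacb (-1.81), the acetyl-CoA carboxylases. Idi1, an isomerase of the isoprenoid branch, had 16.9, 17.6, 16.0 and 10.6 CPM at 7 d, against 1.96, 3.85 and 5.87 CPM at 72 h, with no overlap (log2 change 1.96, SE 0.49, adjusted p = 0.00541). Nsdhl, a sterol dehydrogenase, had 44.5, 25.6, 32.1 and 26.1 CPM at 7 d, against 5.29, 10.2 and 15.2 CPM at 72 h (log2 change 1.68, adjusted p = 0.00106). Scd1, the desaturase that makes oleate, averaged 391 ± 42.0 CPM at 7 d and 246 ± 21.5 CPM at 72 h (log2 change 0.67, adjusted p = 0.0200). Elovl5, which lengthens polyunsaturated fatty acids, averaged 113 ± 22.1 CPM at 7 d and 54.0 ± 8.63 CPM at 72 h (log2 change 1.06, adjusted p = 0.00153). With the share 4 cholesterol genes rose, with log2 of the share 2, and without replicate 4 of 7 d 2. Of the fatty acid genes 0 passed with log2 of the share. In Input 17 of 25 cholesterol and 12 of 17 fatty acid genes rose, and 2 of each fell.

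Among 30 genes of protein folding and export at the endoplasmic reticulum 7 rose and 1 fell, with a median log2 change of 0.46. Xbp1, a transcription factor of the unfolded protein response, had 118, 82.4, 97.4 and 128 CPM at 7 d, against 26.8, 36.8 and 48.8 CPM at 72 h, with no overlap (log2 change 1.51, SE 0.35, adjusted p = 0.00316). Its change with log2 of the share was 2.14 (adjusted p = 0.000203). Hspa5, the chaperone BiP, had 222, 161, 211 and 140.3 CPM at 7 d, against 59.2, 96.8 and 138 CPM at 72 h (log2 change 0.96, adjusted p = 0.00317). The 2 subunits of the Sec61 channel that were named went apart: Sec61a1 rose (log2 change 0.98, adjusted p = 0.0132) and Sec61b fell (-0.99, adjusted p = 0.0140). Of 29 genes of the integrated stress response, which adjusts translation to amino acid supply, 4 rose (Psat1, Asns, Cebpg and Aars). The 2 that fell were Atf4 and Atf5, transcription factors of this response. The part that rose was 13.8%, beside 6.86% of all genes tested, and the part that fell was 6.90%, near the 6.35% of all genes tested. Asns, asparagine synthetase, had 216, 217, 190.4 and 252 CPM at 7 d, against 66.1, 107 and 131 CPM at 72 h (log2 change 1.20, adjusted p = 0.00607). Atf5 had 9.68, 19.2, 30.8 and 10.1 CPM at 7 d, against 27.8, 35.4 and 37.4 CPM at 72 h, with overlap (log2 change -0.92, adjusted p = 0.0344). It did not pass in 5 of 11 fits that left out 1 library. Atf4 had a log2 change of -0.55. With log2 of the share 0 of the 29 passed and 3 of the folding genes rose.

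Interferon-induced genes rose in a few members. Of 34 tested 6 rose (Irf7, Rtp4, Ifit3, Ifit1, Ifit2 and Oasl2) and 0 fell, with a median log2 change of 0.51, and 5 rose with log2 of the share. Without replicate 2 of 7 d 1 rose and 1 fell, with a median of 0.14, and with the 72 h libraries under 15% 2 rose and 0 fell. Oasl2, an oligoadenylate synthetase-like protein, had 43.2, 113, 57.4 and 59.7 CPM at 7 d, against 20.3, 29.3 and 39.5 CPM at 72 h, with no overlap (log2 change 1.26, SE 0.29, adjusted p = 0.00234). Irf7, the factor that amplifies the interferon response, had 15.5, 94.6, 43.2 and 43.2 CPM at 7 d, against 5.09, 10.8 and 18.1 CPM at 72 h, and replicate 1 of 7 d overlapped the range of 72 h (log2 change 2.15, adjusted p = 0.0122). Replicate 2 of 7 d held the highest value of Oasl2, Irf7, Ifit3 and Rtp4, and without it Irf7, Ifit3 and Rtp4 did not pass. Among 10 tested MHC class I genes B2m (log2 change 1.03) and H2-D1 (1.01) rose, and without replicate 2 of 7 d neither passed. Of 16 complement genes 2 fell, among them C3 (log2 change -2.16, adjusted p = 0.0125). C3, the central component, had 4.98, 2.53, 3.91 and 6.35 CPM at 7 d, against 12.7, 18.1 and 33.7 CPM at 72 h. Of 31 cytokine and chemokine genes Csf1 rose and Il33 fell. This is 3.23% each way, under the 6.86% of all genes tested that rose and the 6.35% that fell. Il33, an alarmin of barrier and stromal cells, had 2.20, 0.678, 0 and 0.450 CPM at 7 d, against 5.55, 9.74 and 12.9 CPM at 72 h, with no overlap (log2 change -3.48, adjusted p = 0.00205).

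Markers of the ganglion's other cells were present in the pulled-down RNA of both times and moved in part. The fibroblast list was lower, with 7 of 18 genes lower and 0 higher (median log2 change -0.76), and a summed level of 1613 to 2322 CPM at 7 d, against 2382 to 3831 CPM at 72 h. Ptgds, the prostaglandin D2 synthase of meningeal and perineural cells, had 62.6, 22.7, 21.1 and 17.1 CPM at 7 d, against 63.3, 139 and 190.1 CPM at 72 h (log2 change -2.07, adjusted p = 0.00444). Dcn, the matrix proteoglycan decorin, had 342, 230.2, 203 and 279.9 CPM at 7 d, against 335, 427 and 542 CPM at 72 h (log2 change -0.75, adjusted p = 0.0270). Without replicate 4 of 7 d 2 of the 18 fell, with the 72 h libraries under 15% 0. In Input 7 fell and 1 rose.

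Satellite glia, which wrap the neurons, had 6 of 23 markers higher and 1 lower, with a summed level of 3910.2 to 4736 CPM at 7 d and 2396 to 3114 CPM at 72 h. Apoe, the lipid carrier of glia, had 2185, 2156, 2545 and 2966 CPM at 7 d, against 717, 973 and 1248 CPM at 72 h (log2 change 1.30, SE 0.33, adjusted p = 0.00665), and its adjusted p was 0.408 with log2 of the share. Glul, glutamine synthetase, went the other way with 87.9, 102, 149.8 and 83.2 CPM at 7 d, against 159, 224 and 258 CPM at 72 h (log2 change -0.9998, adjusted p = 0.00336). With the share 3 satellite glia markers rose and 1 fell, with log2 of the share 2 and 0, with the 72 h libraries under 15% 0 and 0, and without replicate 4 of 7 d, or without replicate 5 of 72 h, 2 and 1. Of 22 Schwann cell and myelin markers 4 fell (Prx, Drp2, Mbp and Bcas1) and 1 rose (Dhh), with a summed level of 3591 to 4198 CPM at 7 d and 4134 to 7432 CPM at 72 h. Prx (periaxin, of the myelin membrane) had 229, 87.3, 105 and 117 CPM at 7 d, against 210.2, 340.2 and 473 CPM at 72 h (log2 change -1.36, adjusted p = 0.000421), whereas its Input change was 0.57 and the difference -1.87 (adjusted p = 4.03e-05). Dhh, the hedgehog ligand of Schwann cells, had 60.1, 46.6, 80.2 and 53.2 CPM at 7 d, against 6.45, 17.0 and 22.3 CPM at 72 h (log2 change 1.87, adjusted p = 0.000198). In Input 17 of the 22 rose and 2 fell, and for 9 the IP change lay below the Input change, for 1 above.

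Macrophage markers summed to 897 to 1497 CPM at 7 d and 735 to 1062 CPM at 72 h, with 1 of 28 higher (Cd74, the class II invariant chain, log2 change 1.33) and 1 lower (Mrc1, the mannose receptor, -1.34). This is 3.57% each way, under the 6.86% of all genes tested that rose and the 6.35% that fell. Neutrophil and lymphocyte markers summed to 26.3 to 63.8 CPM at 7 d and 113 to 419 CPM at 72 h, with 3 of 23 lower. One of these, Lcn2, a lipocalin of neutrophils, had 0.0831, 0, 0.269 and 0 CPM at 7 d, against 0.308, 6.13 and 16.1 CPM at 72 h (log2 change -6.12, adjusted p = 0.00618). The other 2 rest on few counts: the B cell gene Cd79b had 2 counts over the libraries of 7 d and 108 over those of 72 h, a depth-scaled ratio of 72 h over 7 d of 54.4 (95% counting interval 14.7 to 455), and the T cell gene Cd3d had 1 and 58, a ratio of 58.4 (10.1 to 2348). Endothelial markers had 1 of 16 lower (Vwf, log2 change -2.29), which is 6.25%, beside 6.35% of all genes tested. Mural cell markers had 2 of 12 lower and 1 higher, adipocyte markers 1 of 11 lower and muscle markers 0 of 15 in either direction. The adipocyte list had a median log2 change of -2.07. Its summed level went the other way, at 87.1 to 105 CPM for 7 d, against 41.2 to 77.7 CPM for 72 h, without overlap. The summed levels of endothelial, mural and muscle markers overlapped. Of the erythrocyte list 3 of 7 genes were tested and 1 was lower. The intervals on count ratios hold counting error alone, because PCR copies of 1 molecule cannot be recognised without molecular identifiers. The non-neuronal score was taken over the Schwann cell and myelin, satellite glia, macrophage and fibroblast markers only. With it as a covariate 1368 genes were higher and 1383 lower. Markers of the other cell types did not enter this score, and the part of non-neuronal markers in the neuronal results was not tested further.

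**Figure D5:**
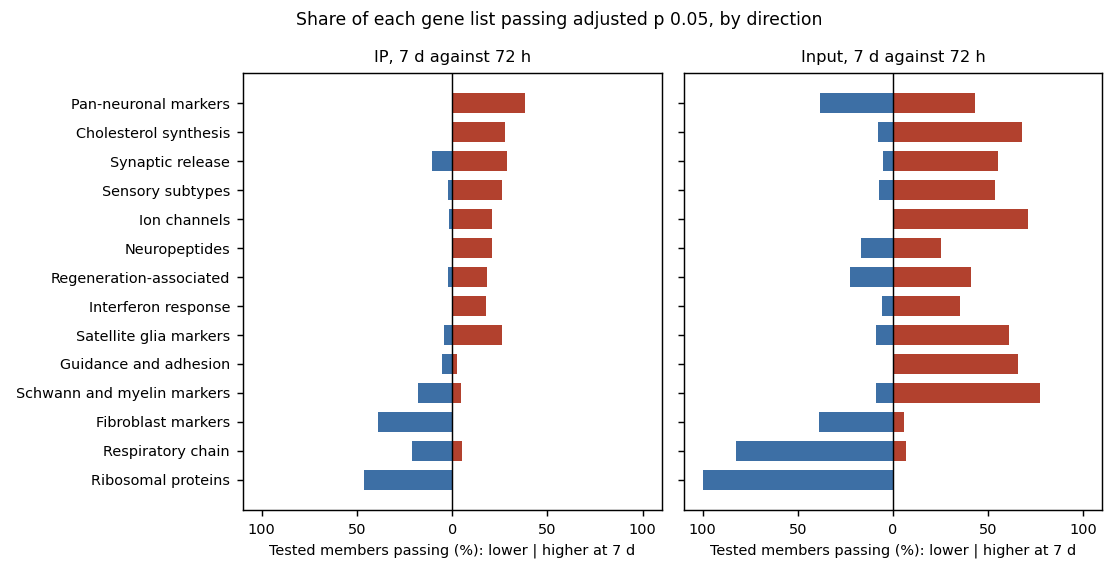
Percent of the tested members of 14 gene lists that passed at an adjusted p under 0.05, higher (red, to the right) or lower (blue, to the left) at 7 d than at 72 h, in IP (left panel) and Input (right panel). Ribosomal protein genes fell in 37 of 80 cases in IP and 80 of 80 in Input, and ion channel genes rose in 11 of 52 and 37 of 52.

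Of 38 proliferation genes Kif11 (log2 change -2.88) and Bub1b (-2.51), both of the mitotic spindle, fell and 0 rose. The part that fell was 5.26%, under the 6.35% of all genes tested. The summed level of the list was 123 to 189.6 CPM at 7 d and 212 to 384 CPM at 72 h. The median log2 change of the list was -1.02, and 0.052 with log2 of the share, under which 0 fell. The number that fell was 10 with DESeq2, 17 with limma voom and 7 when the 11 libraries were fitted alone, with 0 higher in each. Bub1b did not pass in 8 of 11 fits that left out 1 library, nor Kif11 in 3. Of 39 guidance and adhesion genes L1cam rose and Ntn1 (log2 change -2.50, adjusted p = 0.00739) and Epha4 (-2.78, adjusted p = 0.0377) fell. Of this list 2.56% rose and 5.13% fell, under the 6.86% and 6.35% of all genes tested. Epha4 did not pass in 7 of 11 fits that left out 1 library, in which its log2 change ran from -5.16 to -2.16, nor with either covariate. In Input 25 of 38 guidance genes rose and 0 fell, and for 12 of 39 the IP change lay below the Input change. Of 27 tested immediate early genes 3 rose: Arc, Dusp5 and Jund. Jund, a Jun family factor, had 239, 261, 364 and 216 CPM at 7 d, against 111, 169 and 190.2 CPM at 72 h (log2 change 0.75, adjusted p = 0.0111), an Input change of -0.56 and a difference of 1.36 (adjusted p = 0.000814).

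Of 15 glucocorticoid-responsive genes Klf9 rose and 4 fell. This is 6.67% higher, near the 6.86% of all genes tested, and 26.7% lower, beside 6.35% of all genes tested. Klf9, a direct target of the hormone's receptor, had 101, 144, 113 and 101 CPM at 7 d, against 42.1, 53.6 and 64.5 CPM at 72 h, with no overlap (log2 change 1.09, SE 0.21, adjusted p = 0.000396), and the metallothionein genes Mt1 and Mt2 fell (-0.71 and -0.86). Of 19 clock genes Per3, a period gene, fell with no overlap, at 38.8, 23.5, 25.9 and 22.1 CPM for 7 d, against 48.3, 73.5 and 89.3 CPM for 72 h (log2 change -1.36, adjusted p = 0.000421), and Rora fell (-0.88, adjusted p = 0.0156). No source used here gives the hour of tissue collection. Klf9 and Per3 passed with either covariate and with the 72 h libraries under 15%. Largely nuclear RNAs were present in the pull-down, and the nuclear RNA list summed to 37377, 52392, 87783 and 34134 CPM at 7 d, against 53104, 75857 and 103369 CPM as lowest, median and highest at 72 h, with overlap. Their part in the other results was not tested. Among the 10 tested Meg3, an imprinted long noncoding RNA, rose, with 8190.4, 7052, 8112 and 9265 CPM at 7 d, against 3915, 4931 and 6502 CPM at 72 h (log2 change 0.65, adjusted p = 0.0195), while in Input it fell (-0.86, adjusted p = 0.00184) and the difference was 1.58 (adjusted p = 0.000412). Kcnq1ot1, another imprinted RNA, fell (-1.23, adjusted p = 0.0248), as did Rian (-0.67, adjusted p = 0.0388).

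The largest rises among named genes that passed without overlap and reached 5 CPM were those of Kcnd1, Spata2l, Nrsn2, Prrxl1, Lrfn1, Acss2os, Arc, Atp6v0c, Chrna7, Mblac1, Aen and Tubb4a. Kcnd1, an A-type potassium channel subunit, had 48.3, 20.5, 9.83 and 39.9 CPM at 7 d, against 0.165, 2.48 and 6.03 CPM at 72 h (log2 change 3.32, SE 0.63, adjusted p = 0.000352). Prrxl1, a homeobox factor of developing sensory neurons and their spinal targets (chr14:32595867-32649246, named Drgx in newer annotation), had 32.6, 35.0, 18.3 and 49.96 CPM at 7 d, against 1.89, 4.08 and 6.34 CPM at 72 h (log2 change 3.00, adjusted p = 0.000203). Atp6v0c, the proton-carrying ring of the vesicle and lysosome proton pump, had 35.6, 39.1, 41.2 and 53.9 CPM at 7 d, against 4.38, 7.47 and 10.6 CPM at 72 h (log2 change 2.50, adjusted p = 0.000457). Against naive these 3 had log2 changes of 2.76, 2.37 and 2.95 at 7 d, with adjusted p under 0.05 in each, and of -0.56, -0.63 and 0.44 at 72 h, above it in each. Lrfn1, a synaptic adhesion protein, had 23.1, 31.8, 9.76 and 12.4 CPM at 7 d, against 0.496, 2.31 and 4.87 CPM at 72 h (log2 change 2.87, adjusted p = 0.000543). Chrna7, the alpha 7 nicotinic receptor, had 4.61, 9.25, 6.80 and 8.46 CPM at 7 d, against 0.210, 0.876 and 2.68 CPM at 72 h (log2 change 2.45, adjusted p = 0.0186). Aen, a nuclease induced by p53, had 21.6, 44.9, 23.6 and 45.5 CPM at 7 d, against 1.16, 7.20 and 8.55 CPM at 72 h (log2 change 2.44, adjusted p = 0.000847). The Input change of Aen was 0.33 and the difference between IP and Input 2.16 (adjusted p = 0.00798). Mblac1 rose in IP (2.45, adjusted p = 0.0194) and fell in Input (-1.09, adjusted p = 1.64e-05), a difference of 3.599 (adjusted p = 0.000328). Without replicate 4 of 7 d Spata2l, Nrsn2, Chrna7 and Mblac1 did not pass, nor did Arc without replicate 2, and Acss2os failed in 10 of 11 such fits. Acss2os runs antisense to Acss2, and whether counting used strand is not given, so reads of the 2 cannot be told apart.

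The largest falls by the same rule were those of Aqp7, Lcn2, Gpx2-ps1, Morc2b, Slain1, Plagl2, Adam12, Il33, LOC100504703, Myoc, Cdon and Dnali1. Dnali1, a dynein light intermediate chain of cilia, had 1.74, 1.54, 2.09 and 1.67 CPM at 7 d, against 11.8, 14.99 and 20.8 CPM at 72 h, the smallest adjusted p of the 12 (log2 change -3.19, SE 0.39, adjusted p = 5.32e-07). Plagl2, a zinc finger factor, had 0.0831, 0.308, 1.28 and 0.0450 CPM at 7 d, against 3.93, 5.35 and 9.85 CPM at 72 h (log2 change -3.89, adjusted p = 0.00170). Slain1, a protein of growing microtubule ends, had 0.582, 0.247, 0.606 and 0 CPM at 7 d, against 1.36, 2.57 and 15.04 CPM at 72 h (log2 change -3.89, adjusted p = 0.00620). In Input Plagl2 and Slain1 had changes of -0.29 and 0.73 that did not pass, and the difference between IP and Input was -3.57 (adjusted p = 0.00171) and -4.56 (adjusted p = 0.000429). Cdon, a hedgehog co-receptor, had 0.582, 0.0616, 0.673 and 1.62 CPM at 7 d, against 2.52, 5.12 and 19.3 CPM at 72 h (log2 change -3.21, adjusted p = 0.00258). Aqp7, a glycerol channel, had 1 count over the libraries of 7 d and 259 over those of 72 h, a ratio of 72 h over 7 d of 261 (95% counting interval 46.4 to 10347), and replicate 5 of 72 h held 32.1 CPM. Adam12, a metalloprotease, also had its highest value there and did not pass without it (log2 change -2.74, adjusted p = 0.0733) or without replicates 3 or 4 of 7 d. Gpx2-ps1 is a pseudogene whose reads could come from its parent gene, and Morc2b, Myoc and LOC100504703 had log2 changes of -4.05, -3.36 and -3.40.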

How the data were processed

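RNA was measured in pulled-down ribosomes (IP) and whole ganglia (Input). The authors deposited whole-number read counts per RefSeq gene, not normalized, in 1 table. Per the submitters' processing notes, bcl2fastq 2.17, STAR and HTSeq and the build GRCm38 (mm10) were used. Per the labels' protocols, cDNA came from SMART-Seq v4 and libraries from Nextera XT, read as 75 bp pairs on 1 lane. Of 24060 rows 27 have symbols turned into dates and were left out (0.0346% to 0.214% of a library's counts).

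Counts were scaled by TMM, filtered with filterByExpr and fitted with edgeR 4.0.16 (R 4.3.3) by robust quasi-likelihood over 39 IP libraries in 7 groups. Input (40 libraries) and the difference between IP and Input (79) had fits of their own, and p-values were adjusted by Benjamini-Hochberg over all genes tested. The SE is the log2 change divided by the square root of F. Depth ran from 3614942 to 16721527 counts over the 39 IP libraries and from 4952958 over the 11 compared. The steps were tested on simulated data. Coordinates and start sequences come from RefSeq tables of GRCm38.p6.

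Named were the 12 largest rises and 12 largest falls at an adjusted p under 0.05, with a mean of at least 5 CPM in the higher group and no overlap, passing over predicted genes; from each list the passing members with the lowest adjusted p, at most 4; and 17 genes whatever their result. List members cited beyond these, and those of the closing observations, were chosen after their values were seen. Some members that the rule would name are not reported here. The genes, the 34 lists (909 symbols, 896 matched, 49 in over 1 list) and the tests were chosen with earlier results of these data known. Alternatives were the share on Rn45s plus Lars2 as a covariate, removal of both genes, other scalings, filters and tools (DESeq2 1.42.0, limma 3.58.1), sex and non-neuronal scores, a replicate block and leaving out each library. Replicate numbers were checked as pairs by the correlation of deviations from group means. Between IP and Input of 1 time, the Input library of the same number ranked 1 in correlation with its IP library. The exceptions were replicates 5 and 6 of 72 h, where it ranked 2. No shared animal is stated, so the reported tests used no pairing, and those of the difference between IP and Input leave out any such link.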

Additional observations from a re-analysis of the deposited data

Results flagged for a closer look

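In 24 of 262 groups of values tested, 13 of 7 d and 11 of 72 h, the highest or lowest library of a named gene stood apart from the others of its time by Dixon's test at the 95% level. This is 9.16% of the groups, and chance gives about 1 in 20. Each value in parentheses is the library's gap to its nearest neighbour divided by the range of its group, and the group is the 4 libraries of 7 d or the 7 of 72 h.

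At 7 d, replicate 1 was highest for Ptgds (0.876). Replicate 1 of 7 d was lowest for Atp5e (0.847) and Gal (0.886). At 7 d, replicate 2 was highest for Aqp7 (1.0), Ntn1 (0.945), Epha4 (0.922), Cd3d (1.0) and Rgs5 (0.895). At 7 d, replicate 3 was highest for Nsg1 (0.903). At 7 d, replicate 4 was highest for Calca (0.902), Tm7sf2 (0.894), Kif11 (0.866) and Cd79b (1.0). At 72 h, replicate 5 was highest for Aqp7 (0.927), Adam12 (0.814), Cdon (0.627), Epha4 (0.634), Kif11 (0.750), Cd3d (0.597) and Scn10a (0.623). Replicate 5 of 72 h was lowest for Dhh (0.633). Replicate 1 of 72 h was lowest for Cspg4 (0.570) and Tac1 (0.581). Replicate 2 of 72 h was lowest for Vwf (0.634). The groups at 7 d with a value of 1.0 each have 1 library with counts and the rest at 0.

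For 36 named genes the change between 7 d and 72 h in IP differed from that in Input by edgeR's quasi-likelihood test of the difference over 79 libraries, at an adjusted p under 0.05. Values are the IP log2 change minus the Input log2 change. Among the neuronal and growth genes they were Gap43 (1.56), Calb1 (1.18), Cplx1 (1.18), Stmn2 (1.07), Gadd45a (1.03), Jund (1.36), L1cam (-0.92) and Scn10a (-1.85). Glial, vascular, immune and fat cell genes lay lower in IP, at Prx (-1.87), Drp2 (-1.96), Bcas1 (-2.44), Vwf (-2.04), Cspg4 (-2.33), Plin1 (-4.71), C3 (-2.55), Il33 (-2.68), Lcn2 (-4.54) and Cd79b (-4.79). Genes of translation, respiration, metabolism and stress were Rpl32 (1.01), Rpl10a (1.53), Atp5e (1.20), Psat1 (1.13), Cebpg (1.05), Mt1 (1.04), Klf9 (0.92) and Acacb (-2.88). The others were Mblac1 (3.599), Aen (2.16), Meg3 (1.58), Slain1 (-4.56), Plagl2 (-3.57), Morc2b (-3.34), Dnali1 (-2.14), Ntn1 (-2.28), Kif11 (-2.26) and Rora (-0.85). With the share on Rn45s plus Lars2 as a covariate 2819 genes of 19584 differed, beside 2339 without it.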

How the results depend on the processing

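Counts of IP genes moved by over 1.5 times under some settings and by less under the others. The total of 2464 became 811 with log2 of the share as a covariate (382 higher, 429 lower), 454 with the 3 libraries of 72 h under 15% (183 and 271) and 4538 with limma voom (2209 and 2329). With DESeq2 the total moved by less than 1.5 times, to 3522. There the genes lower moved by more, to 2182 beside 1184, and those higher were 1340 beside 1280. Replicate numbers of IP 7 d and 72 h did not pair the libraries (same-number r from -0.0574 to 0.0256), and the replicate block in the 11 libraries gave 1637 calls (901 and 736), or 4 with the share added (1 and 3). The replicate block over IP and Input of 1 time and number, whose r ran from 0.0567 to 0.178, gave 3597 differences between IP and Input (2036 and 1561), beside 2339. Leaving out 1 library gave 1199 to 2324 IP genes in all, 699 to 1198 higher and 500 to 1126 lower, where the lowest were without replicate 4 of 7 d and 755 lower remained without its replicate 1. Input gave 6990 to 7961 genes in such fits, beside 8022, and the difference 1998 to 2856. The fit of the 11 libraries alone, RLE scaling, either filter, removal of Rn45s and Lars2, the sex score, the non-neuronal score and the linear share left the IP total between 2137 and 3145. The median log2 change of regeneration-associated genes was 0.38 with the share, 0.24 with its log2 and 0.32 with the 72 h libraries under 15%. That of sensory subtype genes was 0.36 with log2 of the share, 0.25 with block and share and 0.45 with the 72 h libraries under 15%. Synaptic release genes had 0.28 with log2 of the share, 0.29 with the non-neuronal score, 0.28 with the replicate block, 0.29 with block and share, 0.20 with the 72 h libraries under 15%, and 0.36 to 0.51 without 1 library, the lowest without replicate 5 of 72 h. With block and share ion channel genes had -0.12 and ribosomal protein genes -0.31, and respiratory chain genes had -0.76 with log2 of the share, -0.60 with the replicate block, -0.093 with block and share and -0.46 to -0.21 without 1 library, the smallest without replicate 1 of 7 d and -0.23 without replicate 1 of 72 h. Of 117 named genes that passed, 104 passed with the share, 54 with its log2, 36 with the 72 h libraries under 15% and 67 in every fit that left out 1 library. The log2 change turned in sign with log2 of the share for Gal (-0.60), Scn10a (0.011), Rpl10a (-0.019), Rn45s (0.41) and Lars2 (1.04), and with the share for Gal (-0.067). Jun had -0.055 with the non-neuronal score, -0.016 with the replicate block and -0.0099 with block and share. With block and share Epha4 had 0.24, Tm7sf2 -0.071, Atf5 0.15, Mt2 0.029, Meg3 -0.017, Rpl10a -0.48, Rn45s 0.046 and Lars2 0.32. With the replicate block Atf3 (adjusted p = 0.0498), Sprr1a (0.00105) and Ecel1 (0.000503), which did not pass in the reported fit, passed by edgeR. The cause was not tested for any of these. Genes with few counts at 7 d, such as Aqp7, Cd79b and Cd3d, are limited by depth.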

Other observations

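The genes given here lay outside the lists, had small adjusted p-values and were chosen after their values were seen. All values here are means with SD over 4 libraries of 7 d and 7 of 72 h, with edgeR's quasi-likelihood test. Syngr3, a synaptic vesicle protein, averaged 196 ± 48.4 CPM at 7 d and 43.2 ± 9.84 CPM at 72 h (log2 change 2.19, adjusted p = 2e-07). Dbn1 (drebrin, which binds actin in growth cones and spines) averaged 411 ± 112 CPM at 7 d and 97.1 ± 27.8 CPM at 72 h (log2 change 2.08, adjusted p = 2.61e-06). Pirt, a membrane protein of sensory neurons that binds TRPV1, averaged 330.4 ± 40.7 CPM at 7 d and 97.3 ± 20.2 CPM at 72 h (log2 change 1.76, adjusted p = 2.61e-06). Myh9, a non-muscle myosin heavy chain, averaged 282 ± 51.2 CPM at 7 d and 88.3 ± 15.3 CPM at 72 h (log2 change 1.68, adjusted p = 1.61e-05). In each of these 4 no library of 7 d overlapped those of 72 h. On the other side Mast4, a microtubule-associated kinase, averaged 7.32 ± 2.88 CPM at 7 d and 37.6 ± 7.66 CPM at 72 h (log2 change -2.35, adjusted p = 2e-07). Kat6b, a histone acetyltransferase, averaged 5.78 ± 1.35 CPM at 7 d and 21.7 ± 3.73 CPM at 72 h (log2 change -1.91, adjusted p = 1.72e-05). Cox17, a copper chaperone for cytochrome oxidase, averaged 78.5 ± 31.9 CPM at 7 d and 259 ± 89.4 CPM at 72 h (log2 change -1.72, adjusted p = 8.76e-05), and these 3 were also free of overlap.

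Gene families read by the start of the symbol, also chosen after the data were seen, gave further groups. Of 68 tested Rab genes, small GTPases of vesicle traffic, 18 rose and 1 fell, with 7 higher and 1 lower under log2 of the share. Their summed level was 5097 to 5587 CPM at 7 d and 2651 to 3632 CPM at 72 h, without overlap. Rab15 averaged 233 ± 49.5 CPM at 7 d and 56.7 ± 16.3 CPM at 72 h (log2 change 2.04, adjusted p = 2.01e-05) and Rab5a, of early endosomes, 76.2 ± 18.5 CPM at 7 d and 23.2 ± 5.13 CPM at 72 h (log2 change 1.72, adjusted p = 5.73e-05). Ctsb, the lysosomal protease cathepsin B, averaged 1287 ± 201 CPM at 7 d and 544 ± 78.1 CPM at 72 h (log2 change 1.24, adjusted p = 2.46e-05). Of 92 tested potassium channel genes 20 rose and 3 fell, with 7 higher and 0 lower under log2 of the share, and their summed level was 2326 to 2450.3 CPM at 7 d and 1505 to 2311 CPM at 72 h. Of 1122 olfactory receptor genes, which the ganglion hardly expresses, 198 passed the filter on counts and were tested. Of these 0 rose and 15 fell, which is 7.58% beside 6.35% of all genes tested, with a median log2 change of -3.25. So rare a transcript passes the filter only through libraries that hold counts of it, so the direction may follow from the filter and does not describe the family. Their summed level was 52.9 to 184 CPM at 7 d and 81.1 to 1142 CPM at 72 h, where the median library of 72 h held 141 CPM. The median log2 change was -2.42 with the share as a covariate, under which 1 rose and 2 fell. With log2 of the share it was -0.71, and 1 rose and 0 fell.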
